A study of Glycine max with 6 samples.

Results

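The genes described here encode storage proteins of the soybean seed. They were chosen by name, as the probe sets that the annotation table assigns to a single one of these symbols: GY1, GY2, GY3, GY4, GY5, GY7, CG-1, CG-BETA-1, GM2S-1 or SBP2. The rule found 15 of 37641 soybean probe sets, for 10 genes, of which 5 genes have 2 probe sets each and 5 have 1. Both GY4 probe sets list this symbol under 2 gene IDs and were kept, since no other symbol is listed. Seed coats (testa) of black (iRT) and brown (irT) plants of the soybean variety Clark were compared, with 3 plants per genotype and 1 Affymetrix Soybean GeneChip per plant. The isolines are nearly isogenic, carry the same i and T alleles, and differ at the R locus, which controls whether the pigmented seed coat is black or brown. Plants were untreated and cabinet-grown, and seed coats were harvested on the same days and dissected at 300 to 400 mg fresh seed weight, the transition stage of seed development. The plants are written as black 1, 2 and 3 and brown 1, 2 and 3. The values are log2 signals made by the robust multi-array average (RMA), in which a difference of 1 is a 2-fold change.

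Storage proteins are the nitrogen, carbon and sulfur reserve of the seed, and they are made mainly in the cotyledons of the embryo during maturation and deposited in vacuoles. In soybean they are chiefly the 11S glycinins, which assemble as hexamers of acidic and basic chains, and the 7S conglycinins, which are trimers. The 2S albumins are small and rich in sulfur amino acids, and sucrose-binding protein is a relative of the 7S proteins that was isolated for its binding of sucrose. The seed coat surrounds the embryo, is maternal tissue, and passes nutrients to it. Of the genes described, GY1, GY2 and GY3 encode group I glycinins, GY4 and GY5 group II glycinins, and GY7 a more divergent glycinin. CG-1 encodes an alpha-type conglycinin and CG-BETA-1 a beta-type conglycinin.

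Most of these transcripts were measurable in the seed coat samples. As a background level, the 95th percentile of the probe sets for the pathogens Phytophthora sojae and Heterodera glycines was used on each array (3.54 to 3.78), because these probe sets have no target in healthy soybean. Of the 15 probe sets, 11 lay above it in all 6 plants, 14 in at least 1 plant, and 1 probe set of CG-1 in none. Whether a signal comes from seed coat cells or from embryo tissue in the sample cannot be told from RNA of whole dissected seed coats. Likewise, fewer cells of a type and less RNA per cell cannot be told apart. The array medians were 5.76 to 5.91 and arrays were correlated at 0.983 to 0.996 over soybean probe sets. The control probe sets named GlutTrans, which lie along 1 transcript, differed between their 3 prime and 5 prime ends by 2.08 to 2.41 on the 6 arrays, so the arrays were close in this sign of RNA quality. The controls named Actin had 10.6 to 10.8 at the 3 prime end. At the 5 prime end they had 3.05 to 3.81, above background in only 1 plant, so the signal fell steeply toward this end.

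None of the 15 probe sets differed between black and brown seed coats at an adjusted p under 0.05 (limma, adjusted over all soybean probe sets, smallest adjusted p = 0.560), where 0.109% of all soybean probe sets did. By the means, 12 were higher in black and 3 lower, with a median log2 difference (black minus brown) of 0.49 beside -0.02 over all soybean probe sets. Without black plant 1 this median was -0.02. A mean more than 2-fold higher in black was seen for 4 probe sets, those of GY7, GM2S-1 and SBP2 and 1 of CG-1 (26.7% of the members, 0.861% of all soybean probe sets). Of these, GY7 was below background in 1 brown plant and the CG-1 probe set in 3 of 6 plants. At an unadjusted p under 0.05 in limma there were 2 probe sets, both of CG-1 (13.3% of the members, 8.32% of all), and 1 of them was below background in every plant. Complete separation of the genotypes was seen in 1 of the 15 probe sets, the same CG-1 probe set below background, against 14.0% of all soybean probe sets. The 9 probe sets of 11S glycinins had a median difference of 0.36 (8 higher and 1 lower), and the 4 of 7S conglycinins one of 0.16 (2 higher and 2 lower). Plants of the same genotype differed widely: the pooled SD within genotypes had a median of 0.63 over the 15 probe sets, and 0.15 over all soybean probe sets.

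**Figure D1:**
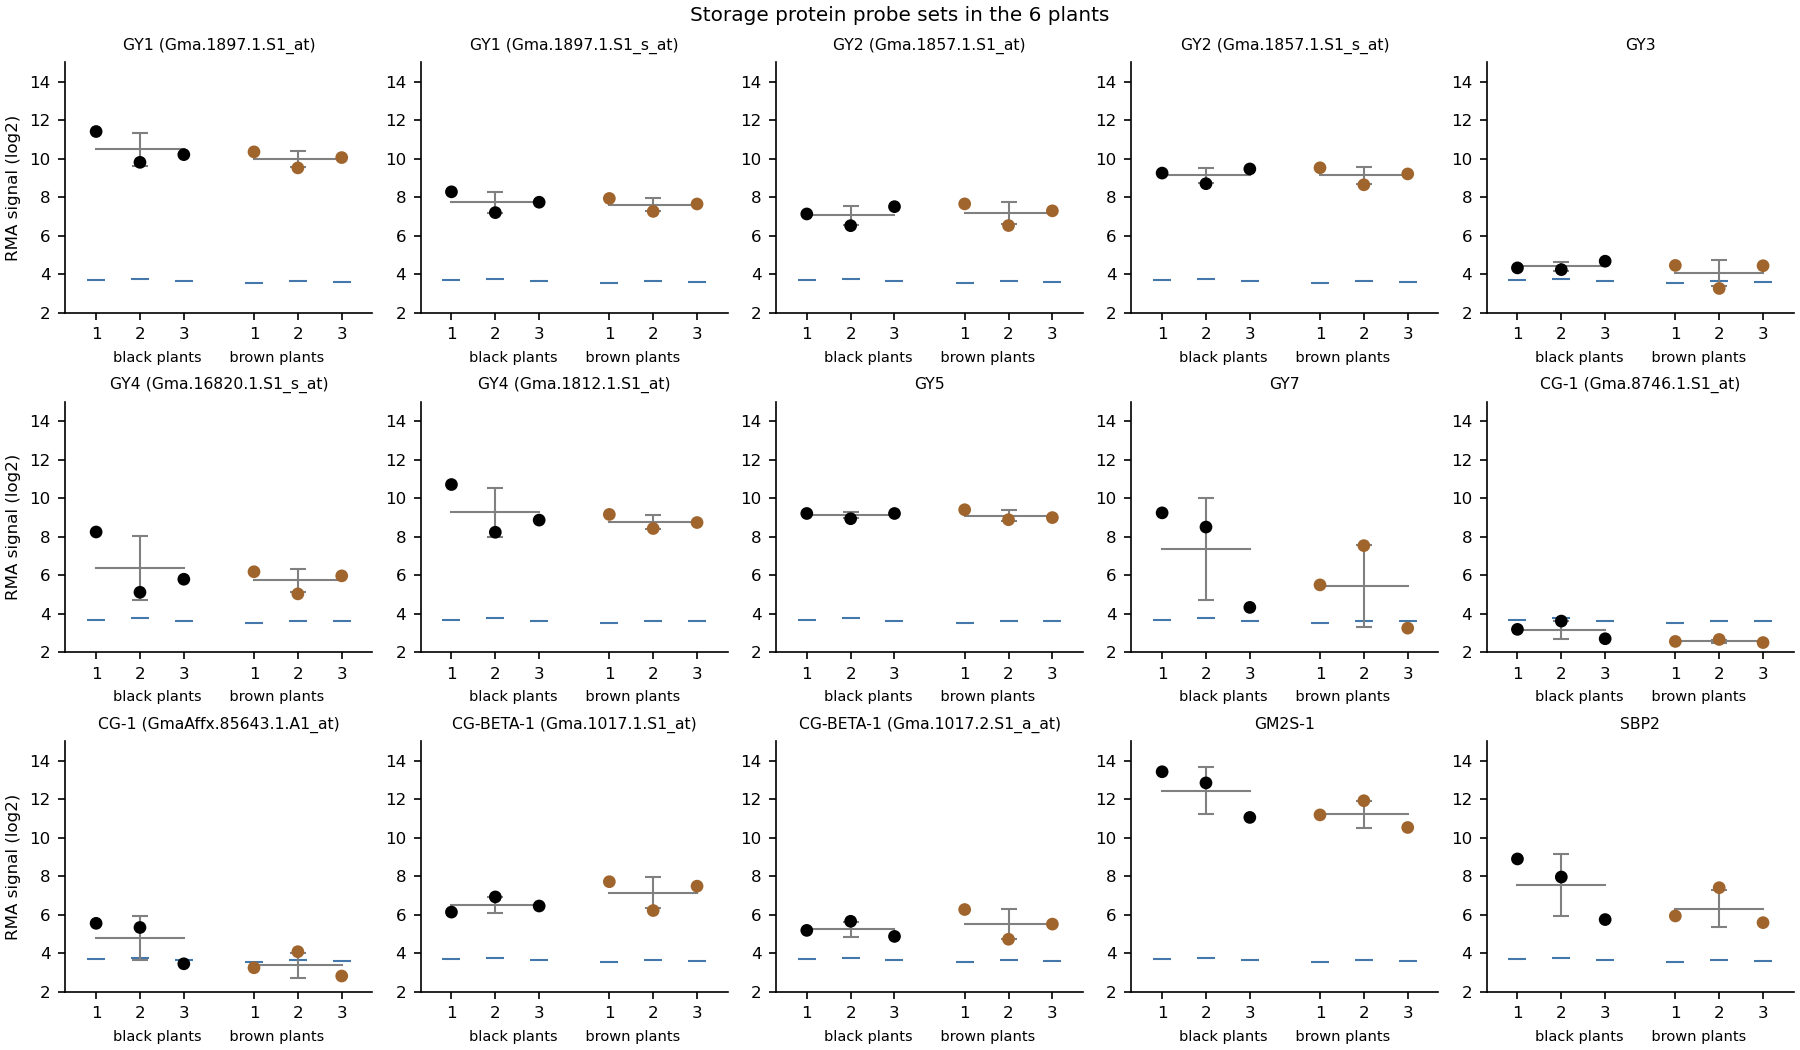
Log2 RMA signals of the 15 storage protein probe sets in each of 3 black (black points) and 3 brown (brown points) plants. Grey lines are the mean and SD of each genotype, and blue dashes are the background level of each array. Of the 15 panels, 14 show overlap between the genotypes, and GY7 spans the widest range, from 3.26 to 9.24.

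GY7, the divergent glycinin, varied most. Its signals were 9.24, 8.50 and 4.33 in black 1, 2 and 3 and 5.50, 7.54 and 3.26 in brown 1, 2 and 3. Black 1, black 2 and brown 2 were high, brown 1 was intermediate, and black 3 and brown 3 were low, brown 3 below the background level. The signals covered a range of 5.98 on the log2 scale, for which no fold is given because the lowest plant was not above background. The mean was 7.36 ± 2.64 in black and 5.43 ± 2.14 in brown (SD, n = 3), a log2 difference of 1.93 with a 95% interval of -1.53 to 5.38 (limma, adjusted p = 0.753). Leaving out single plants moved it from 0.84 (without brown 3) to 3.44 (without black 3).

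GM2S-1 encodes a 2S albumin. Its signals were 13.42, 12.84 and 11.05 in black 1, 2 and 3 and 11.18, 11.91 and 10.53 in brown 1, 2 and 3. The order of the plants was the same as for GY7, with black 1 highest and brown 3 lowest, and the genotypes overlapped. The means were 12.44 ± 1.24 and 11.21 ± 0.69 (SD, n = 3), a log2 difference of 1.23 with a 95% interval of -0.22 to 2.68 (limma, adjusted p = 0.648). It was 0.74 without black 1 and 1.92 without black 3.

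SBP2, the sucrose-binding protein gene, had 8.89, 7.96 and 5.75 in black 1, 2 and 3 and 5.94, 7.40 and 5.59 in brown 1, 2 and 3. Again the order of the plants was that of GY7, and black 3 lay below brown 1 and brown 2. The range over the 6 plants was 3.30, or 9.88-fold. The log2 difference between genotypes was 1.22 with a standard error of 0.81 (limma, adjusted p = 0.722), and 0.54 without black 1 or 2.12 without black 3.

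The array carries further control probe sets named SucBP, read here as sucrose-binding protein, which lie at the 3 prime end, the middle and the 5 prime end of a transcript and are not in the annotation table. The 3 prime control had 11.47, 10.996 and 8.05 in black 1, 2 and 3 and 8.54, 10.02 and 7.53 in brown 1, 2 and 3. The middle control had 7.95, 7.06 and 4.43 in black 1, 2 and 3 and 5.28, 6.18 and 4.44 in brown 1, 2 and 3. Both gave their high signals to black 1, black 2 and brown 2, as SBP2 did, from separate probe sets on the same arrays. At the 5 prime end all 6 plants were below the background level. The Pearson correlation with SBP2 over the 6 plants was 0.985 for the 3 prime and 0.986 for the middle control, given as a measure of likeness with no test, since they share the RNA of each plant. Between the highest and the lowest plant the 3 prime SucBP control covered 3.94, the 3 prime controls named Actin, Ubiquitin and GlutTrans 0.28, 0.57 and 0.75, and the one named P450 1.87, with black 1 highest and brown 3 lowest.

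**Figure D2:**
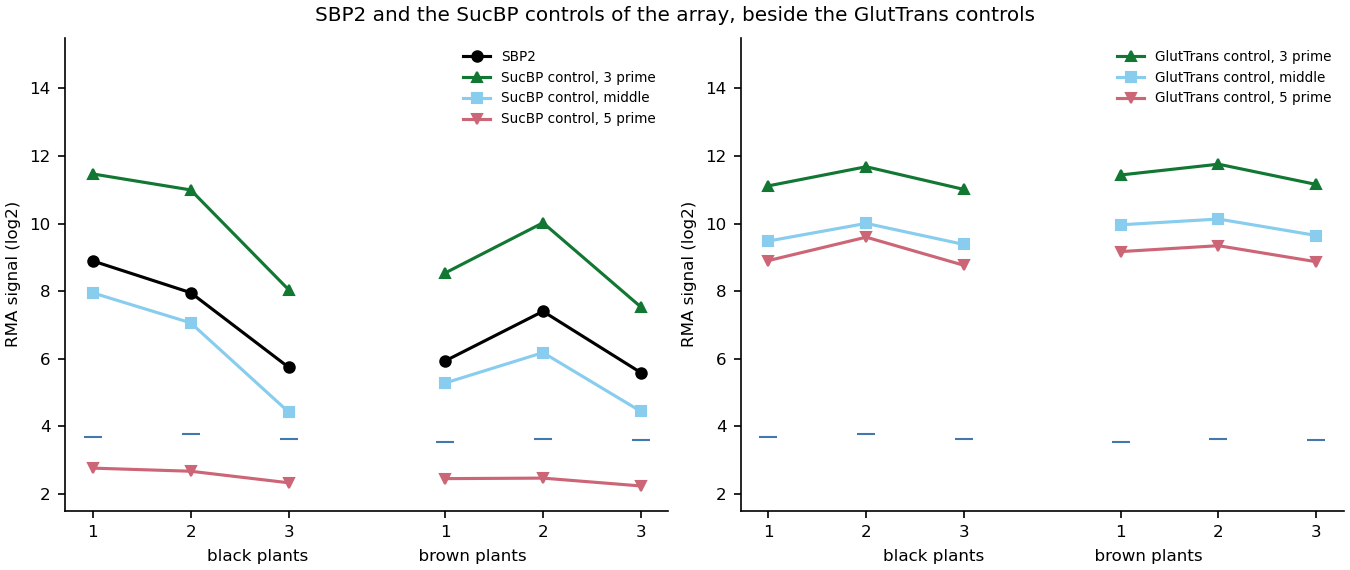
Log2 RMA signals of SBP2 and of the SucBP controls at the 3 prime end, middle and 5 prime end of the transcript (left), and of the GlutTrans controls (right), in 3 black and 3 brown plants. Blue dashes are the background level of each array, and lines join the values of 1 probe set and mark no order of plants. SBP2 and the 3 prime and middle SucBP controls are highest in black plant 1 and are low in black plant 3 and brown plant 3, while the GlutTrans controls cover 0.75 to 0.83.

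Both probe sets that list CG-1 alone, the alpha-type conglycinin gene, gave low signals. The brighter one had 5.55, 5.34 and 3.45 in black 1, 2 and 3 and 3.25, 4.08 and 2.82 in brown 1, 2 and 3. Black 1, black 2 and brown 2 lay above the background level and the other plants below it. The log2 signals differed by 1.40 with a 95% interval of 0.05 to 2.75 (limma, adjusted p = 0.592), which is no measure of a fold, since only 1 brown plant was above background. The dimmer probe set lay between 2.51 and 3.62, below the background level in every plant, so no fold is given for it either. It is the probe set in which the genotypes were separate, with a lowest black plant of 2.71 and a highest brown plant of 2.67 (limma, adjusted p = 0.560).

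A bright conglycinin probe set lists CG-1 together with CG-3, another conglycinin gene, and so was left out. It had 12.73, 12.37 and 10.65 in black 1, 2 and 3 and 10.94, 11.17 and 10.50 in brown 1, 2 and 3. All 6 plants were far above background in it, and its signal cannot be assigned to either gene. Its log2 difference was 1.05 with a standard error of 0.51 (limma, adjusted p = 0.639). Black 1 and black 2 were high in it, and brown 2 was the highest of the brown plants, as for GM2S-1.

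The group I glycinin GY1 and the group II glycinin GY4 followed another pattern, with black 1 above all other plants. For GY1 the probe set ending in S1_at had 11.41, 9.81 and 10.21 in black 1, 2 and 3 and 10.35, 9.52 and 10.05 in brown 1, 2 and 3. The one ending in S1_s_at had 8.28, 7.20 and 7.74 in black 1, 2 and 3 and 7.94, 7.26 and 7.65 in brown 1, 2 and 3. In both, black 1 was highest, brown 1 next, and black 2 and brown 2 were the lowest. The log2 differences were 0.50 and 0.12 (limma, adjusted p = 0.771 and 0.933), and 0.033 and -0.15 without black 1.

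GY4 varied more than GY1. Its probe set ending in S1_at had 10.71, 8.23 and 8.86 in black 1, 2 and 3 and 9.15, 8.42 and 8.73 in brown 1, 2 and 3. The one ending in S1_s_at had 8.24, 5.12 and 5.79 in black 1, 2 and 3 and 6.18, 5.03 and 5.97 in brown 1, 2 and 3. Black 1 stood apart in both, and the other 5 plants overlapped between genotypes. The log2 differences were 0.49 (95% interval -0.88 to 1.86) and 0.66 (-1.13 to 2.45) with all plants (limma, adjusted p = 0.850 and 0.847). They were -0.23 and -0.27 without black 1, so their sign rested on this plant.

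GY2, GY3 and GY5 were low in brown 2, as were GY1 and GY4. GY2, a group I glycinin, had 9.25, 8.70 and 9.46 in black 1, 2 and 3 and 9.53, 8.64 and 9.21 in brown 1, 2 and 3 for the probe set ending in S1_s_at, and lay between 6.52 and 7.65 for the other. Black 2 and brown 2 were the low plants in both. The log2 differences of GY2 were 0.01 and -0.10 (limma, adjusted p = 0.993 and 0.955).

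GY5, which encodes a group II glycinin, had 9.20, 8.93 and 9.20 in black 1, 2 and 3 and 9.40, 8.88 and 8.99 in brown 1, 2 and 3. Its range of 0.52 was the smallest of the 15 probe sets. The log2 difference was 0.02 with a 95% interval of -0.35 to 0.39, a fold between 0.787 and 1.31 (limma, adjusted p = 0.978). GY3, a group I glycinin, was close to background, with 4.33, 4.24 and 4.68 in black 1, 2 and 3 and 4.46, 3.26 and 4.44 in brown 1, 2 and 3. Only brown 2 lay below the background level, and without it the log2 difference of GY3 moved from 0.36 to -0.035 (limma, adjusted p = 0.790 with all plants).

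CG-BETA-1, the beta-type conglycinin, was the gene with lower means in black for both probe sets. The one ending in S1_at had 6.14, 6.92 and 6.45 in black 1, 2 and 3 and 7.71, 6.22 and 7.48 in brown 1, 2 and 3. The one ending in S1_a_at had 5.19, 5.66 and 4.88 in black 1, 2 and 3 and 6.27, 4.73 and 5.51 in brown 1, 2 and 3. Brown 1 was highest in both, while brown 2 lay within or below the range of the black plants. The log2 differences were -0.63 (95% interval -1.56 to 0.30) and -0.26 (-1.16 to 0.64), and neither passed the test (limma, adjusted p = 0.708 and 0.883). The sign of the second turned without brown 1, to 0.12.

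**Figure D3:**
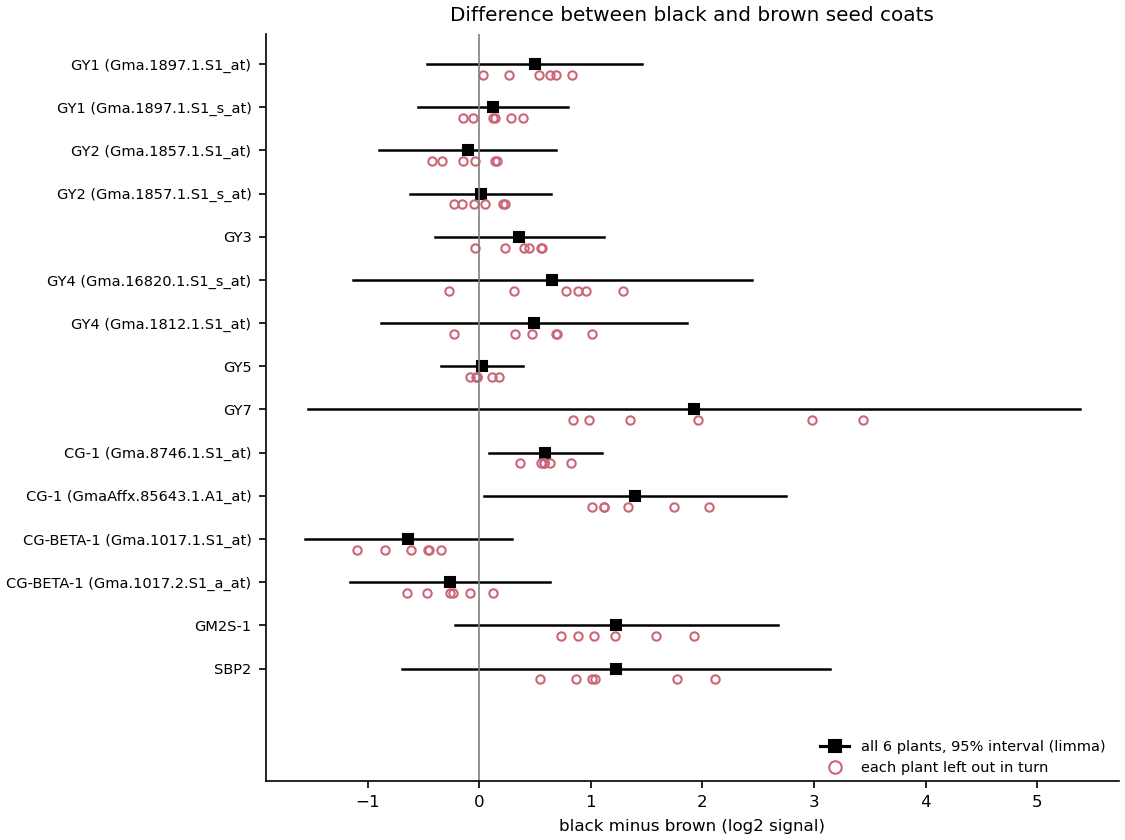
Difference between the mean log2 signals of black and brown seed coats for the 15 storage protein probe sets. Squares and bars are the limma estimate and its 95% interval over 6 plants, and open circles leave out 1 plant in turn. The bars of all probe sets but those of CG-1 cross 0, and the bar of GY7 is the widest, from -1.53 to 5.38.

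The probe sets were set in 4 groups by the order of the plants, which were formed after the values were seen and carry no test. CG-1, GM2S-1, GY7 and SBP2 (5 probe sets) deviated from their own means by 1.64, 1.23 and -0.96 in black plants 1, 2 and 3 and by -0.73, 0.30 and -1.48 in brown plants 1, 2 and 3. Their pairwise Pearson correlations over the 6 plants were 0.76 to 0.99. After the mean of each genotype was taken off, the correlations were 0.69 to 0.99, so the likeness was also present within genotypes.

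GY1 and GY4 (4 probe sets) deviated by 1.41 in black plant 1 and by -0.68 to 0.16 in the other plants. Their pairwise correlations were 0.92 to 0.99, and 0.87 to 0.99 without black plant 1. With GY2 the GY4 probe sets were correlated at 0.37 to 0.51 over all plants and at 0.94 to 0.96 without black plant 1, so the GY1 and GY4 group parted from GY2 by that plant. GY2, GY3 and GY5 (4 probe sets) deviated by -0.56 in brown plant 2 and by -0.30 to 0.37 in the others. Their pairwise correlations were 0.63 to 0.99, and 0.44 to 0.98 without brown plant 2. A low brown plant 2 was not particular to this group, since GY1 and GY4 deviated by -0.68 in it. CG-BETA-1 (2 probe sets) deviated by 0.90 in brown plant 1 and by -0.62 in brown plant 2. These correlations are descriptions over 6 plants that share 2 genotypes.

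**Figure D4:**
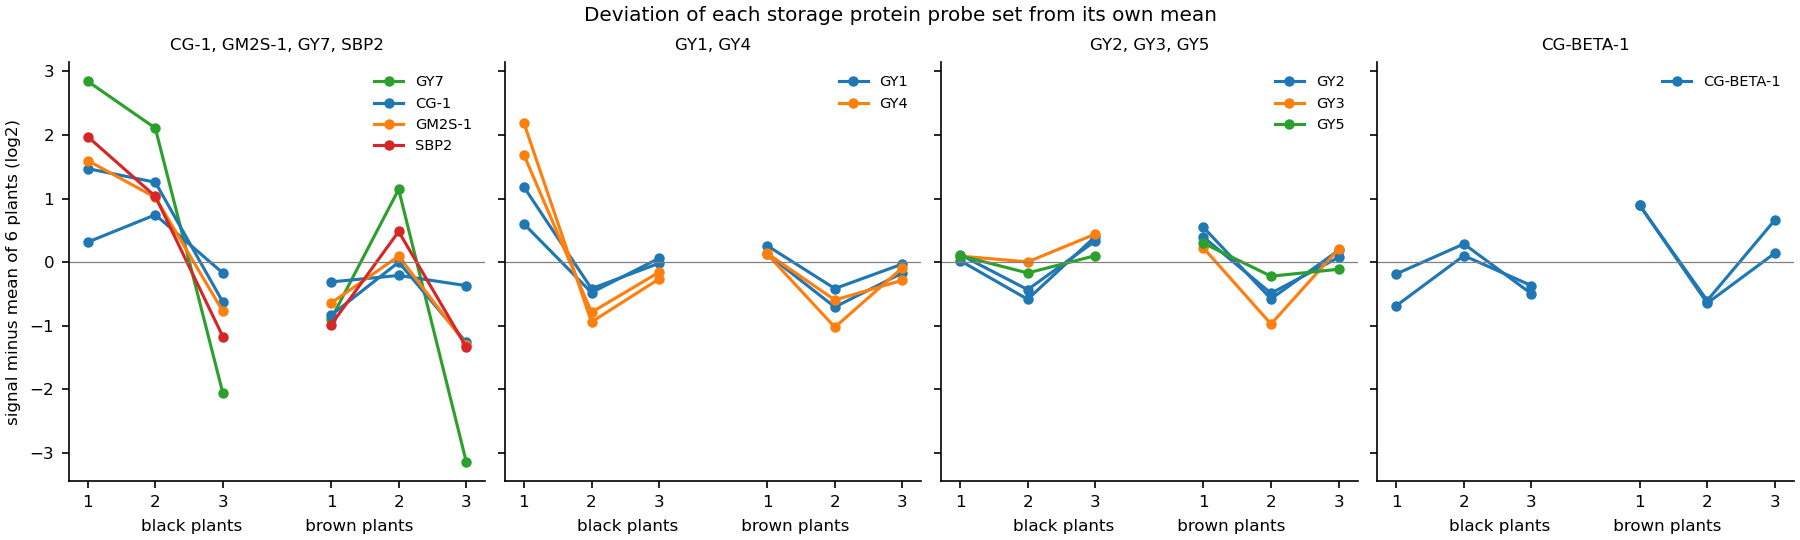
Deviation of each storage protein probe set from its own mean over 6 plants (log2), in 3 black and 3 brown plants, in the 4 groups formed by the order of the plants. Lines join the values of 1 probe set and mark no order of plants. CG-1, GM2S-1, GY7 and SBP2 are high in black plants 1 and 2, GY1 and GY4 in black plant 1, and CG-BETA-1 in brown plant 1.

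Probe sets of the same gene followed each other, with correlations of 0.86 (CG-BETA-1) to 0.99 (GY4) over the 6 plants. Probe set names that end in _s_at mark probes shared with other transcripts, so the values of GY1, GY2 and GY4 in these probe sets may include related glycinins, as may the value of SBP2. Neighbouring genes did not always follow each other. GY7 and GY3 lie side by side on chromosome 19 (RefSeq, Glycine max v4.0), without another annotated gene between them, and their signals were correlated at -0.43. GY3 was close to background and below it in brown 2, and GY7 was below it in brown 3, so this value carries little weight. GY2 and GY1 are likewise adjacent, on chromosome 3, with correlations of 0.45 to 0.78 between their probe sets, and of 0.94 to 0.99 without black plant 1. GY4 and CG-1 are on chromosome 10, GY5 and GM2S-1 on chromosome 13, CG-BETA-1 on chromosome 20 and SBP2 on chromosome 2.

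The spread within genotypes placed these probe sets among the most variable of the array. Of the 14 probe sets above background in at least 1 plant, 13 had a pooled SD in the top 10% of the 27371 soybean probe sets above background in at least 1 plant. GY7 had a pooled SD of 2.41, and GY5, the exception, had 0.22, at the 72.3rd percentile. Black plant 1 was the highest plant in 8 of the 15 probe sets, and in 16.3% of the 27371. Brown plant 2 was the lowest in 6 and brown plant 3 in 5, against 17.2% and 11.9% of the 27371. A profile correlated above 0.9 with that of GY7 was found in 413 of the 27371 probe sets (1.51%).

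**Figure D5:**
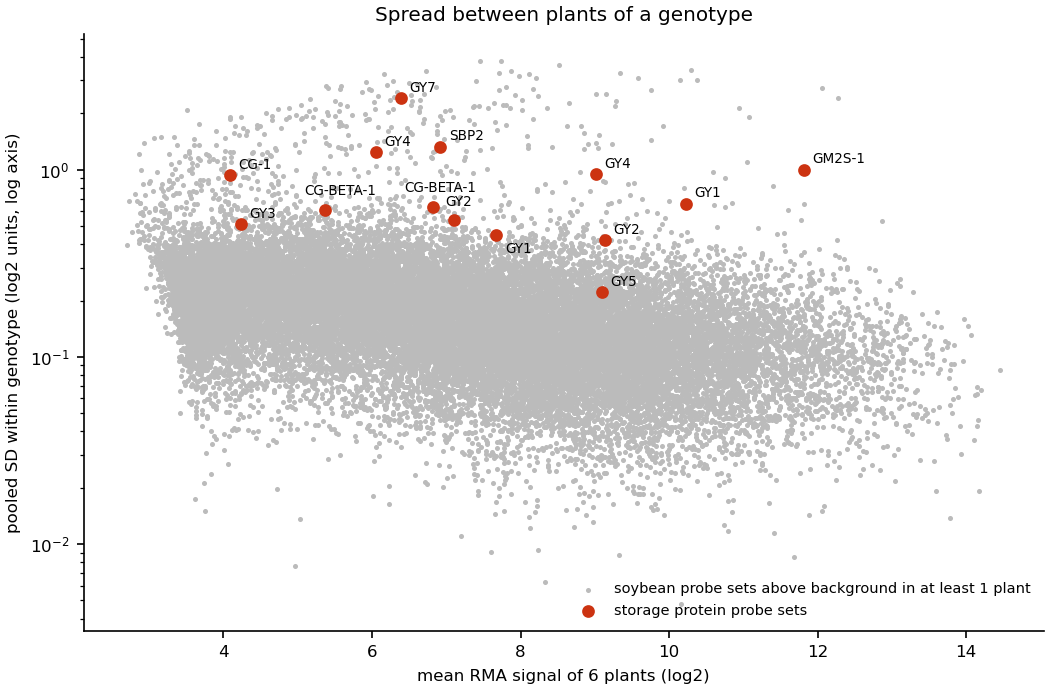
Pooled SD within genotypes (log axis) against the mean log2 signal of 6 plants, for 27371 soybean probe sets above background in at least 1 plant (grey) and the storage protein probe sets among them (red). All storage protein probe sets but that of GY5 lie in the top 10% of the pooled SD.

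Other seed genes were followed through lists taken from gene symbols. Of 34 probe sets for embryo maturation proteins (matched by symbols such as PM with a number and LEA), none rose or fell (limma, smallest adjusted p = 0.502). Their median log2 difference was 1.41. Their mean deviations were 1.91, 0.83 and -0.97 in black plants 1, 2 and 3 and -0.69, 0.37 and -1.44 in brown plants 1, 2 and 3. By the list means this is the order of the plants seen in GM2S-1, GY7 and SBP2, though not in every member. Black plant 1 was the highest plant in 29 of the 34 probe sets and brown plant 3 the lowest in 21 of them. The log2 of their summed signal was 14.6 to 15.4 in black and 14.5 to 14.9 in brown plants. The part of seed maturation, or of embryo tissue in the samples, in the storage protein values was not tested.

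The list members with the largest spread were SLE2, PM32 and PM9. SLE2, a LEA protein gene, had 9.96, 8.43 and 4.26 in black 1, 2 and 3 and 5.24, 7.63 and 3.66 in brown 1, 2 and 3. PM32 had its lowest value, 2.76, in brown 3 and its highest, 8.93, in black 1. PM9 had 3.47 and 9.90 in the same plants, and both genes were below the background level in brown 3. All 3 had the order of the plants of GY7.

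Among 10 probe sets for oil body and other abundant seed proteins, and 9 for Kunitz and Bowman-Birk protease inhibitors, which share the protein storage vacuole with the globulins, none rose or fell. No oleosin gene was matched in the first of these lists. By the list means black plant 1 stood apart in both, as in GY1 and GY4, though not in every member. Black plant 1 was the highest plant in 8 of the 10 and 7 of the 9 probe sets. Its mean deviation was 1.49 in the first list, where the other plants had -0.50 to -0.17, and 2.03 in the second, where they had -0.51 to -0.24. The log2 of the summed signal of the inhibitors was 13.1 in black plant 1 and 9.79 to 10.3 in the other plants.

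By spread the first list was led by LOX1.1, a seed lipoxygenase, with 12.11 in black plant 1 and 7.96 to 8.53 in the others. SBP65, a seed biotin-containing protein, had 6.39 in black plant 1 and 2.98 to 3.30, below the background level, in the others. LOX2 had 9.97 in black plant 1 and 5.96 to 7.80 in the others. Among the inhibitors, BBI had 12.01 in black plant 1 and 7.98 to 8.78 in the others. Both KTI-3 probe sets were likewise high in black plant 1, with 7.21 and 7.61, and the other plants had 2.57 to 3.42 and 3.50 to 3.79. In the first of them these other plants were all below the background level, and the second was above it in 4 of 6 plants. In all of these probe sets the high value came from 1 plant of 6, and none passed the test.

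Genes for folding and cutting storage proteins did not share this spread. Of 13 probe sets for protein disulfide isomerases, BiP chaperones and vacuolar processing enzymes, none rose or fell, and their median pooled SD was 0.15, that of all soybean probe sets. VPE, a vacuolar processing enzyme, which cuts proglycinins into their chains, had 9.86, 9.54 and 9.41 in black 1, 2 and 3 and 9.01, 9.53 and 9.05 in brown 1, 2 and 3 (limma, adjusted p = 0.611). PDIQ-1A lay between 7.27 and 8.00 and BIP2 between 7.47 and 8.11. The summed signal of this list, as log2, was 12.9 in all black plants and 13.1 to 13.2 in the brown plants, a separation that was not tested. Among single soybean probe sets, 14.0% separated the genotypes completely. VPE went the other way, with a log2 difference of 0.40.

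Only 2 probe sets represented regulators of seed maturation. LEC1-A, a homologue of the Arabidopsis factor LEC1 that promotes embryo maturation and storage protein genes, had 5.40, 4.36 and 2.60 in black 1, 2 and 3 and 2.87, 3.70 and 2.54 in brown 1, 2 and 3 (limma, adjusted p = 0.706). Black plants 1 and 2 and brown plant 2 were above the background level and the others below it, as for the brighter CG-1 probe set. Brown plant 2 was only just above its level of 3.64. At the 99th percentile of the pathogen probe sets only black plant 1 was above (level 4.45). WRI1B, a homologue of the oil synthesis regulator WRI1, lay between 2.52 and 3.06, below the background level in every plant.

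A list of seed coat genes held 15 probe sets, all above the background level in at least 1 plant, and 1 of them in only 1 plant. No other tissue was measured, so this is no check of the labelled tissue. The same level was passed by 33 of the 34 embryo maturation probe sets. None of the 15 seed coat probe sets rose or fell. The log2 of their summed signal was 15.8 to 16.5 in black and 15.8 to 16.2 in brown plants. Within this list PRP2, a proline-rich cell wall protein, had the largest spread and the order of the plants seen in GY7 in its probe set ending in S1_s_at, with 14.35, 13.87 and 10.44 in black 1, 2 and 3 and 12.40, 13.69 and 7.60 in brown 1, 2 and 3. PRP1 lay between 4.58 and 5.83. For comparison, 10 probe sets of photosynthetic tissue (CAB3 and PSAD) had mean deviations of -0.09 to 0.08, with summed signals of 14.2 to 14.7 in black and 14.3 to 14.5 in brown plants. The first 3 of them by spread, 2 of CAB3 and 1 of PSAD, had ranges under 1.

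The profiles compared were those of 587 probe sets with a symbol, a signal above background in at least 1 plant and a log2 range of at least 1. They were set beside the mean of the 14 storage protein probe sets above background in at least 1 plant, which joins groups with different plant orders. Of the 587, PM41, a seed maturation protein, had the profile most like this mean (r = 0.969 over 6 plants). It had 7.52, 6.47 and 5.70 in black 1, 2 and 3 and 5.90, 5.50 and 5.67 in brown 1, 2 and 3. It was followed by LOC100500130 (0.962), G4DT, a prenyltransferase (0.957), LOC547716 (0.956) and LOC100306647 (0.947). Of these, LOC547716 varied most, with 8.29 in black 1 and 4.32 in brown 3. LOC100500130 and G4DT were above background in black 1 alone, with 4.31 and 3.86. They passed the filter only through the plant that is highest in the mean profile, so their r carries little weight. The most opposite profiles were those of LOC100500428 (-0.968), LOC100807207 (-0.967), LOC100786387 (-0.965), LOC100796135 (-0.957) and GSTU47, a glutathione S-transferase (-0.951). GSTU47 had 4.91 in black plant 1 and 5.66 to 6.20 in the other plants. None of these 10 probe sets rose or fell (limma, adjusted p = 0.607 to 0.857), and r is a description chosen as the highest or lowest of 587 values.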

How the data were processed

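Total RNA (100 ng per plant) of seed coats was transcribed in vitro for 16 h by the authors and hybridized to 1 GeneChip per plant. The authors deposited log2 signals made by RMA, with background adjustment, normalization over the arrays together and summary of the probes. RMA in FlexArray was used, of which no version is given in the sources used here. RMA makes the distributions of the arrays alike, so a difference is relative to the other transcripts of a plant. Tables of the comparison of the authors (group means, fold, SAM score and p of their probe sets) were not used, and no scanner files were used here.

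The genotype contrast was fitted unpaired in R 4.3.3 by limma 3.58.1 (two-sided, functions lmFit and eBayes), with Benjamini-Hochberg adjustment over 37641 soybean probe sets. "Rose" and "fell" mean an adjusted p under 0.05, values are mean ± SD, and the number of arrays limits the precision. With 3 plants per genotype the smallest p of an exact permutation test is 0.1. The labels call the arrays biological replicates, and the methods state that RNA came from 3 plants per genotype. Members were taken from gene symbols in the platform annotation (8677 soybean probe sets with 1 symbol listed, 370 with several and 28594 with none), and 10 of 11 gene IDs matched the Glycine max v4.0 gene table. The files name no genome build, so no coordinates are given.

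The members and lists were chosen with earlier results of these data known. Each member is described. Of other genes, up to 3 per list by spread within genotypes, and the 5 most and 5 least like the mean member profile, are named. The pipeline was tested on simulated data. Alternatives were the SAM statistic, trend and robust settings, median centring, cyclic loess, all probe sets, a filter on dim signals, the replicate number as a block, leaving out shared probe sets (suffix _x_at, _s_at, _a_at), a 99th percentile for the background, and each plant left out. Figures were drawn with Python 3.11.15 and matplotlib 3.10.9.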

Additional observations from a re-analysis of the deposited data

How the results depend on the processing

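In limma no storage protein probe set passed an adjusted p of 0.05 under any setting tried, with a smallest adjusted p of 0.109 (without black plant 3) and, in the other settings, of 0.420 to 0.917. With the replicate number as a block the count was 0 and the smallest adjusted p 0.420. The numbers mark no shared plant, day or batch in the labels, and same-numbered plants deviated together at correlations of 0.09, 0.29 and 0.50. With the SAM statistic at the thresholds of the methods the count was 0, with a smallest unadjusted p of 0.0276 (119 soybean probe sets passed in all). The median log2 difference of the 15 probe sets was 0.43 to 0.54 under other normalizations and filters, and 0.36 without the GY4 probe sets, an alternative chosen after seeing the data. It was -0.022 to 0.63 when single plants were left out, and turned negative without black plant 1. Of 189 single values under the alternatives, 174 kept their sign, but many of these could not turn. The trend and robust settings, all probe sets, the filter on dim signals, leaving out shared probe sets and the replicate block leave the difference itself unchanged. The 15 that turned belonged to 8 probe sets and all came from leaving out a plant. Their ranges were -0.15 to 0.39 for GY1 (the probe set ending in S1_s_at), -0.42 to 0.16 and -0.23 to 0.23 for GY2, -0.035 to 0.56 for GY3, -0.27 to 1.29 and -0.23 to 1.01 for GY4, -0.081 to 0.18 for GY5 and -0.65 to 0.12 for CG-BETA-1 (the probe set ending in S1_a_at). The differences of GY7, GM2S-1, SBP2, CG-1 and the other GY1 probe set stayed above 0 and that of the other CG-BETA-1 probe set below 0 when single plants were left out. With the 99th percentile as background level, 14 probe sets again lay above it in at least 1 plant. With 3 plants per genotype and SDs up to 2.64, intervals are wide, with that of the GY7 difference from -1.53 to 5.38.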
